A study of Oryza sativa with 32 samples.

Results

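The comparison sets rice panicles collected 17.5 h after dawn against panicles collected 7 h after dawn, and describes every expressed gene. The 4 libraries titled with each time were taken from the non-normalised count table, which makes 8 of the 32 libraries of a series that covered 8 times over 1 day with 4 libraries each. Both groups were panicles (the flower-bearing head of the rice plant) of IR64, an indica rice variety, from untreated field plots in the Philippines, at 50% flowering. The groups differ by label in the time of collection alone. The labels give hours after dawn, state no day length and name neither midday nor midnight, so the times are written here as 7 h and 17.5 h. They do not say whether the replicates came from separate plants or plots. P-values measure the spread between libraries of the same time, estimated over all 32 libraries, and this spread may be technical. Poly(A) RNA was sequenced from whole panicle tissue, in which fewer cells of a type and less RNA per cell cannot be told apart.

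The plant circadian clock is a network of factors, many of them transcriptional repressors, that follow each other through the day. Its members include the morning factor LHY, the pseudo-response regulators (PRR), GIGANTEA (GI) and the evening complex of LUX, ELF3 and ELF4. Light, sensed by phytochromes and cryptochromes, and the clock together time the transcription of photosynthesis genes, among them the chlorophyll-binding antenna proteins, and the daily build-up and use of starch. The panicle has green chlorophyll-containing organs (lemma, palea, rachis) beside stamens, pollen and ovaries, so that photosynthetic, reproductive and stress genes are all read in the same RNA.

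The 8 libraries held 15.3 to 24 M (1 M is 1000000) counts each at 7 h and 11.4 to 29.7 M at 17.5 h, and 27408 to 30219 and 28559 to 30304 genes had at least 1 count. Levels are CPM (counts per 1000000 counts of the library) with effective library sizes by the trimmed mean of M values (TMM). All 16 listed floral organ identity genes (MADS-box genes and DL) passed the filter on low counts. Their summed level was 2927 to 3437 CPM at 7 h and 2699 to 2960.2 CPM at 17.5 h. The 3 pollen MADS-box genes MADS62, MADS63 and MADS68 summed to 13.6, 36.6, 10.7 and 33.4 CPM in the 7 h libraries and to 2.97, 17.3, 4.92 and 2.03 CPM in the 17.5 h libraries, in replicate order. Replicates 2 and 4 of 7 h thus stood above the other 6 libraries. Replicate 2 of 7 h and replicate 4 of 17.5 h correlated least with the other libraries of their time (mean Pearson r of log2 CPM across genes, 0.948 and 0.948). Counts of calls are therefore also given without these libraries, a choice made after seeing the data.

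At 17.5 h the transcripts of light harvesting and of the daytime clock were far lower than at 7 h, and the widest falls were wider than the widest rises. Of 25766 genes tested, 1752 were higher at 17.5 h (6.8%) and 2396 were lower (9.3%), 16.1% in all, by edgeR's quasi-likelihood test with Benjamini-Hochberg adjusted p under 0.05. The threshold of 2-fold was passed by 554 of the higher genes (2.15% of those tested) and by 1147 of the lower genes (4.45%). A difference of at least 16-fold was found for 12 higher and 85 lower genes. The median size of the difference was 1.69-fold among the higher genes and 1.95-fold among the lower ones. Over all tested genes, 11.4% were above the 7 h libraries in every 17.5 h library and 13.6% were below them in every one. The 4 libraries of 1 time lay wholly above those of the other for 1518 of the 1752 genes called higher and 2185 of the 2396 called lower.

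Genes called lower at 17.5 h took 21.5, 19.9, 19.5 and 19% of all counts in the 7 h libraries and 9.89, 9.73, 10.0 and 9.97% in the 17.5 h libraries. Genes called higher took 6.05, 5.64, 6.85 and 5.98% at 7 h and 11.8, 11.4, 12.1 and 10.7% at 17.5 h. The direction of these shares follows from the calls, and their size shows how much of the messenger RNA the comparison involved. Calls were made for 3.54% of the 3275 genes with a mean under 1 CPM, for 20.7% of the 12506 genes between 10 and 100 CPM, and for 24.9% of the 1983 genes between 100 and 1000 CPM. All 9 called genes among the 38 with a mean of 1000 CPM or more were lower at 17.5 h.

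The split between higher and lower genes depended on the scaling. With library totals alone, 2674 genes were higher and 1513 lower, and with limma on log2(deposited CPM + 1) 2880 were higher and 1557 lower. The median log2 difference of all tested genes was -0.03 with TMM, 0.14 with library totals alone and 0.12 with limma, so small differences change sides with the scaling. Without replicate 2 of 7 h, 1151 genes were higher and 2073 lower. Without that library and replicate 4 of 17.5 h the counts were 1156 and 1848, and without the pollen-rich replicates 2 and 4 of 7 h they were 667 and 1605.

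**Figure D1:**
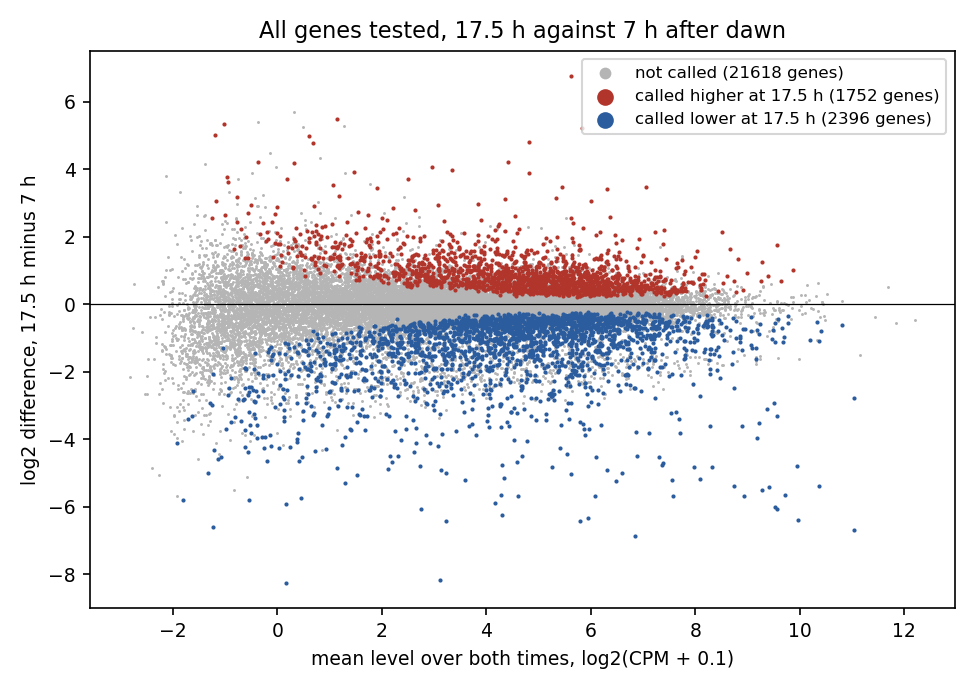
Log2 difference between 17.5 h and 7 h (vertical axis) against the mean level over both times, log2(CPM + 0.1) (horizontal axis), with 1 point for each of 25766 genes. The 2396 genes called lower (blue) reach down to about -8 and include highly expressed genes on the right, and of the 1752 called higher (red) none lies above 6.77.

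The 2 largest rises and falls among genes with a mean of at least 5 CPM at 1 of the times were in genes that the lists do not name. OS04G0583900 had 1.57, 1.04, 0.44 and 0.524 CPM in the 4 libraries of 7 h and 87.6, 121, 111 and 68.1 CPM in those of 17.5 h, a log2 difference of 6.77 ± 0.42 (SE), adjusted p = 6.05e-12. Every library of 17.5 h was far above every library of 7 h, and its mean was highest at 21 h. OS06G0298200 had 2.52, 3.37, 3.44 and 2.49 CPM at 7 h and 105, 117, 132 and 90.5 CPM at 17.5 h (5.22 ± 0.36 (SE), adjusted p = 3.64e-11), again with no overlap. Its mean over the day was highest at 14 h, and the comparison of 21 h with 10.5 h gave 0.33 (adjusted p = 0.45). OS11G0130200 had 16.8, 24.3, 14.8 and 12.3 CPM at 7 h and 0.0600, 0.0827, 0.0781 and 0 CPM at 17.5 h (-8.18 ± 0.78 (SE), adjusted p = 1.95e-08). Its 17.5 h libraries together held 4 counts, so that the size of this fall is uncertain. OS07G0178800 had 263, 203, 149.6 and 292 CPM at 7 h and 1.5, 2.73, 1.8 and 1.81 CPM at 17.5 h (-6.87 ± 0.71 (SE), adjusted p = 7.90e-08), while at 21 h against 10.5 h it had -0.25 (adjusted p = 0.793).

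The called genes did not all have their extremes at these 2 times. Among the 1752 genes higher at 17.5 h, the highest of the 8 time means was at 17.5 h for 722 (41.2%), at 21 h for 380, at 14 h for 312 and at dawn for 206. Their lowest mean was at 7 h for 936 genes and at 3.5 h for 403. Among the 2396 lower genes, the highest mean was at 7 h for 1087 (45.4%), at 3.5 h for 541 and at 10.5 h for 440. Their lowest mean was at 17.5 h for 815, at 14 h for 493 and at 21 h for 445. The labels give no hour for dusk.

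Gene groups were described by 26 lists of rice genes, of which 286 genes were tested, 19 were called higher at 17.5 h and 74 lower, where 6.8% and 9.3% of all tested genes were. The share called in the sugar metabolism, jasmonate, sucrose transport and tapetum lists was near or below the 16.1% of all tested genes. In the photorespiration, gibberellin, carbon fixation, and photoperiod and flowering lists it was little above that. The counts of these lists show nothing particular to them. No gene was called in the floral organ identity, cell division, mature pollen and endosperm storage lists. The files hold identifiers alone. Symbols were paired with them by hand from general knowledge, so the identifier follows the name in parentheses where a gene is described in full. The reference table does not pair these identifiers with symbols, but for 194 of the 286 genes it has the symbol at a place that matches the identifier (chromosome and order along it), and of these 11 were higher and 49 lower. Names the table did not check are listed with the processing and are provisional, while the values belong to the identifiers. A list is described by its count of calls and its median, beside a median of -0.03 over all tested genes.

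Of 14 core clock genes, 7 were lower at 17.5 h, none was higher and 7 were not called, and the list's median log2 difference was -0.81. The 3 widest falls were in pseudo-response regulators, which repress the morning clock genes. PRR37 (OS07G0695100), also a heading date gene, had 174, 189, 201 and 129.7 CPM in the 4 libraries of 7 h and 4.32, 4.22, 5.55 and 4.37 CPM in those of 17.5 h. PRR73 (OS03G0284100) had 566, 529, 551 and 484 CPM at 7 h and 16.2, 11.5, 17.9 and 12.9 CPM at 17.5 h, and PRR95 (OS09G0532400) had 309, 350.2, 380.0 and 228 CPM at 7 h and 13.1, 9.68, 11.5 and 12.8 CPM at 17.5 h. For these genes the 17.5 h libraries lay entirely below the 7 h libraries, with log2 differences of -5.23 ± 0.21 (SE), adjusted p = 6.37e-16 for PRR37, -5.18 ± 0.24 (SE), adjusted p = 1.18e-14 for PRR73 and -4.75 ± 0.29 (SE), adjusted p = 6.34e-12 for PRR95. PRR59 (OS11G0157600) had 83.3, 84.3, 78.1 and 61.3 CPM at 7 h and 37.8, 41.1, 41.6 and 35.2 CPM at 17.5 h (-0.98 ± 0.15 (SE), adjusted p = 3.55e-05). PRR1 (OS02G0618200), the counterpart of Arabidopsis TOC1, had 92.8, 75.9, 80.0 and 78.4 CPM at 7 h and 31.7, 31.9, 29.4 and 33.6 CPM at 17.5 h (-1.37 ± 0.17 (SE), adjusted p = 1.30e-06). All 5 PRR genes were thus lower without overlap, with differences of 1.97-fold to 37.6-fold.

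GI (OS01G0182600), a clock protein that also controls flowering through photoperiod, had 1264, 1317, 1476 and 1055 CPM in the 4 libraries of 7 h and 185, 149.9, 181 and 155 CPM in those of 17.5 h. Its level at 17.5 h was 7.62-fold lower in the fit (-2.93 ± 0.16 (SE), adjusted p = 8.66e-13). FKF1 (OS11G0547000), a blue-light receptor F-box protein that works with GI in Arabidopsis, had 78.4, 88.7, 88.3 and 75 CPM at 7 h and 9.06, 10.1, 8.2 and 10.3 CPM at 17.5 h (-3.13 ± 0.29 (SE), adjusted p = 8.64e-09). Both were separated without overlap. The other F-box genes of that family, ZTL1 (OS06G0694000) and ZTL2 (OS02G0150800), had overlapping libraries. ZTL1 averaged 161 ± 11.2 CPM at 7 h and 163 ± 10.5 CPM at 17.5 h (mean ± SD, n = 4). ZTL2 averaged 103 ± 3.02 CPM at 7 h and 95 ± 9.04 CPM at 17.5 h (mean ± SD, n = 4). Neither was called (adjusted p = 0.902 and 0.614).

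The morning and evening genes that bracket the day were not called between these times. LHY (OS08G0157600) had 199, 102, 129.8 and 81.8 CPM at 7 h and 61.4, 124, 91.3 and 53.3 CPM at 17.5 h, and the 2 sets of libraries overlapped (-0.63 ± 0.36 (SE), adjusted p = 0.261). Its highest mean of the day was 3827 ± 1319 CPM at dawn, so 7 h and 17.5 h are both times away from its peak. LUX (OS01G0971800), a DNA-binding member of the evening complex, had 5.66, 3.54, 2.82 and 4.19 CPM at 7 h and 7.98, 8.27, 7.97 and 5.86 CPM at 17.5 h. The 17.5 h libraries were all above those of 7 h, with a log2 difference of 0.90 ± 0.36 (SE), adjusted p = 0.0927, and the difference passed the test with library totals alone, with limma and in the fit of these 8 libraries alone. The LUX mean reached 155 ± 23.4 CPM at 10.5 h. ELF3-1 (OS06G0142600), ELF3-2 (OS01G0566100) and ELF4a (OS11G0621500) overlapped between the times and had log2 differences of 0.28, 0.59 and -0.06 (adjusted p = 0.262, 0.258 and 0.806). ELF4a was above 0 with library totals alone and with limma, as was ZTL2. With library totals alone and with limma ELF3-1 was called higher (0.44 and 0.44, adjusted p = 0.00941 and 0.00809).

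**Figure D2:**
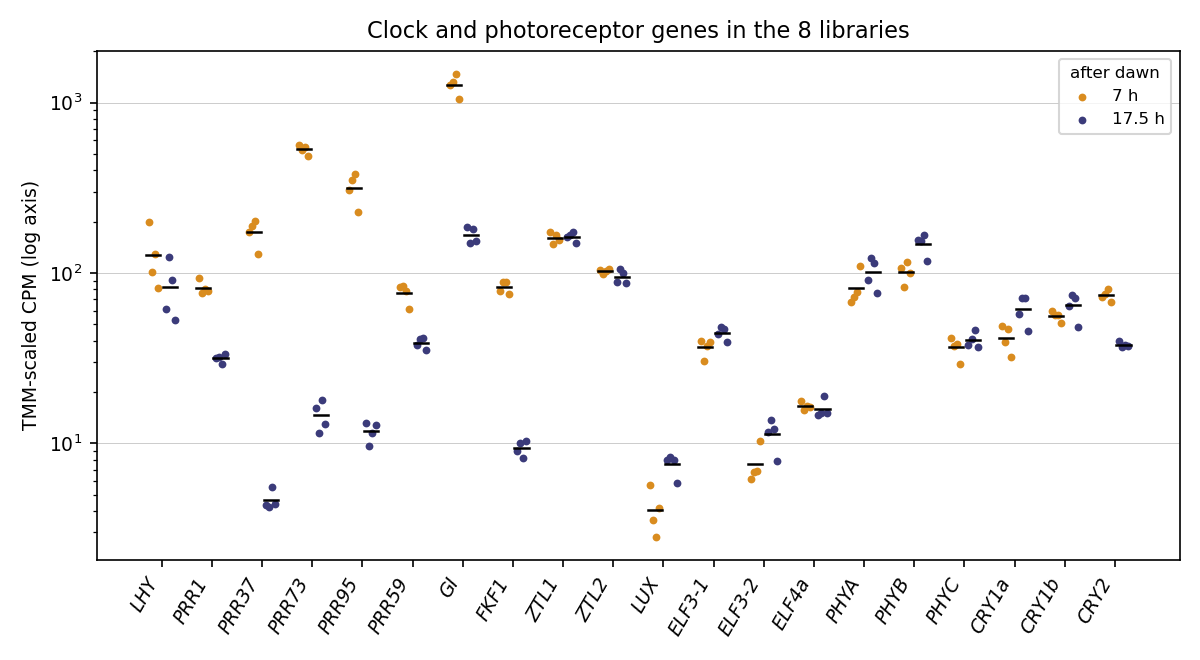
TMM-scaled CPM on a log axis of the 14 clock genes and 6 photoreceptor genes in each library, with 7 h in orange, 17.5 h in dark blue and the mean of 4 libraries as a bar. PRR37, PRR73, PRR95, GI and FKF1 show the widest gaps, and LHY, ZTL1, ZTL2 and ELF4a overlap.

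Among 6 photoreceptor genes, 1 was higher and 1 lower, with a median of 0.26. CRY2 (OS02G0625000), a blue-light receptor, had 72.3, 75.5, 80.2 and 67.7 CPM in the 4 libraries of 7 h and 39.9, 36.6, 37.8 and 37 CPM in those of 17.5 h. The 17.5 h libraries were all below the 7 h libraries, by 1.95-fold (-0.97 ± 0.10 (SE), adjusted p = 1.14e-07). PHYB (OS03G0309200), a red-light receptor, had 107, 82.3, 116 and 99.5 CPM at 7 h and 155, 154, 167 and 118 CPM at 17.5 h and was higher at 17.5 h without overlap (0.55 ± 0.16 (SE), adjusted p = 0.0161). The PHYB call was lost without replicate 2 of 7 h or replicate 3 of 17.5 h, each left out singly (adjusted p = 0.0647 to 0.0818), and without the pollen-rich libraries (adjusted p = 0.248). CRY1a (OS02G0573200) had 49, 39.2, 46.6 and 31.9 CPM at 7 h and 57.7, 70.8, 71.6 and 45.9 CPM at 17.5 h, with overlap, and just missed the threshold (log2 difference 0.56, adjusted p = 0.0597). CRY1a was called higher with DESeq2 size factors, with DESeq2, with library totals alone, with limma, with the replicate block, in the fit of the 8 libraries alone and without replicate 4 of 17.5 h (adjusted p = 0.00707 to 0.0494). PHYA (OS03G0719800), PHYC (OS03G0752100) and CRY1b (OS04G0452100) had log2 differences of 0.31, 0.15 and 0.21, none of them called (adjusted p = 0.581, 0.575 and 0.531).

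The phytochrome-interacting factor-like genes encode transcription factors which phytochromes in Arabidopsis mark for degradation in light. Of the 6 genes, 3 were lower at 17.5 h and none was higher, with a median of -0.87. PIL13 (OS03G0782500) had 112, 72.4, 108 and 56 CPM at 7 h and 6.42, 10.3, 10.4 and 6.55 CPM at 17.5 h (-3.38 ± 0.53 (SE), adjusted p = 3.86e-05). PIL16 (OS05G0139100) had 22.5, 16.3, 15.5 and 12.2 CPM at 7 h and 3.12, 3.97, 3.44 and 2.45 CPM at 17.5 h (-2.36 ± 0.45 (SE), adjusted p = 0.000415). PIL12 (OS03G0639300) had 16.2, 14.1, 15 and 13.7 CPM at 7 h and 6.15, 4.38, 6.33 and 4.26 CPM at 17.5 h (-1.48 ± 0.25 (SE), adjusted p = 9.40e-05). None of these 3 overlapped between the times. PIL11 (OS12G0610200), PIL14 (OS07G0143200) and PIL15 (OS01G0286100) were not called, with log2 differences of 0.37, -0.25 and -0.26 (adjusted p = 0.514, 0.353 and 0.5).

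The antenna genes had the lowest median of any list. Of 14 light harvesting genes, 12 were lower at 17.5 h, 1 was higher and 1 was not called, with a median log2 difference of -5.39. Their summed level was 22095, 24325, 18656 and 14732 CPM in the 7 h libraries and 593, 632, 587 and 477 CPM in the 17.5 h libraries, in replicate order. The table checked the names of 4 of the 14, all of them lower. Replicate 4 was the lowest library at both times. LHCB1-c (OS09G0346500), a major antenna protein of photosystem II, had 4702, 4721, 4216 and 3094 CPM at 7 h and 41.7, 52, 34.1 and 36.6 CPM at 17.5 h. LHCB2 (OS03G0592500) had 2281, 2411, 1819 and 1398 CPM at 7 h and 25.5, 27.1, 21.9 and 19.1 CPM at 17.5 h, and LHCB3 (OS07G0562700) had 1124, 1107, 907 and 693 CPM at 7 h and 19.5, 20.8, 17.6 and 16.8 CPM at 17.5 h. The levels at 17.5 h were 102-fold lower for LHCB1-c (-6.67 ± 0.51 (SE), adjusted p = 3.23e-10), 84.4-fold lower for LHCB2 (-6.40 ± 0.50 (SE), adjusted p = 5.31e-10) and 51.2-fold lower for LHCB3 (-5.68 ± 0.45 (SE), adjusted p = 5.91e-10). LHCA3 (OS02G0197600), an antenna protein of photosystem I, had 1881, 1721, 1721 and 1294 CPM at 7 h and 38.2, 37.3, 36.2 and 20.8 CPM at 17.5 h (-5.64 ± 0.45 (SE), adjusted p = 6.27e-10).

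The other 8 antenna genes called lower were LHCB1-a, LHCB1-b, LHCB4, LHCB5, LHCB6, LHCA1, LHCA2 and LHCA4, with log2 differences from -6.07 to -3.59. Reads shared by the near-identical LHCB1 copies may have been split between them, and the treatment of such reads is not stated in the labels. The remaining 2 genes were singled out after their values were seen. LHCA6 (OS09G0439500) was higher at 17.5 h, from 15.5 to 44.4 CPM (1.52 ± 0.36 (SE), adjusted p = 0.00368), and its mean was highest at 14 h. LHCA5 (OS02G0764500) had 35 ± 4.55 CPM at 7 h and 32.8 ± 4.03 CPM at 17.5 h (mean ± SD, n = 4) and was not called (adjusted p = 0.853).

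Of 13 chlorophyll synthesis genes tested, 7 were lower, 2 higher and 4 not called, with a median of -1.06. CHLH (OS03G0323200), the porphyrin-binding subunit of magnesium chelatase, had 512, 532, 476 and 377 CPM in the 4 libraries of 7 h and 72.4, 77.9, 78 and 60.5 CPM in those of 17.5 h. It was 6.57-fold lower without overlap (-2.72 ± 0.29 (SE), adjusted p = 1.28e-07). CAO1 (OS10G0567400), the oxygenase that makes chlorophyll b, had 329.6, 310.4, 325 and 252 CPM at 7 h and 69.1, 79.7, 83.6 and 56.5 CPM at 17.5 h (-2.07 ± 0.23 (SE), adjusted p = 2.98e-07). PORB (OS10G0496900), the light-dependent protochlorophyllide reductase, had 278, 323, 257 and 203 CPM at 7 h and 77.8, 81.5, 84.8 and 71 CPM at 17.5 h (-1.75 ± 0.26 (SE), adjusted p = 1.56e-05). DVR (OS03G0351200), a divinyl reductase, had 27.4, 33.7, 32.5 and 31.5 CPM at 7 h and 11.7, 12.6, 12.7 and 9.91 CPM at 17.5 h (-1.41 ± 0.22 (SE), adjusted p = 3.41e-05). CRD1 (OS01G0279100), a subunit of the cyclase, fell from 483 ± 33.1 CPM to 188 ± 7.11 CPM (-1.36 ± 0.26 (SE), adjusted p = 0.000446). The 2 higher genes, named after their values were seen, were CHLD, another subunit of magnesium chelatase (from 55.9 to 88.7 CPM, log2 difference 0.67), and CHLG, chlorophyll synthase (from 98.5 to 159.9 CPM, log2 difference 0.70). CHLI, a further subunit of the chelatase, had a log2 difference of -0.31 and was not called (adjusted p = 0.331).

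**Figure D3:**
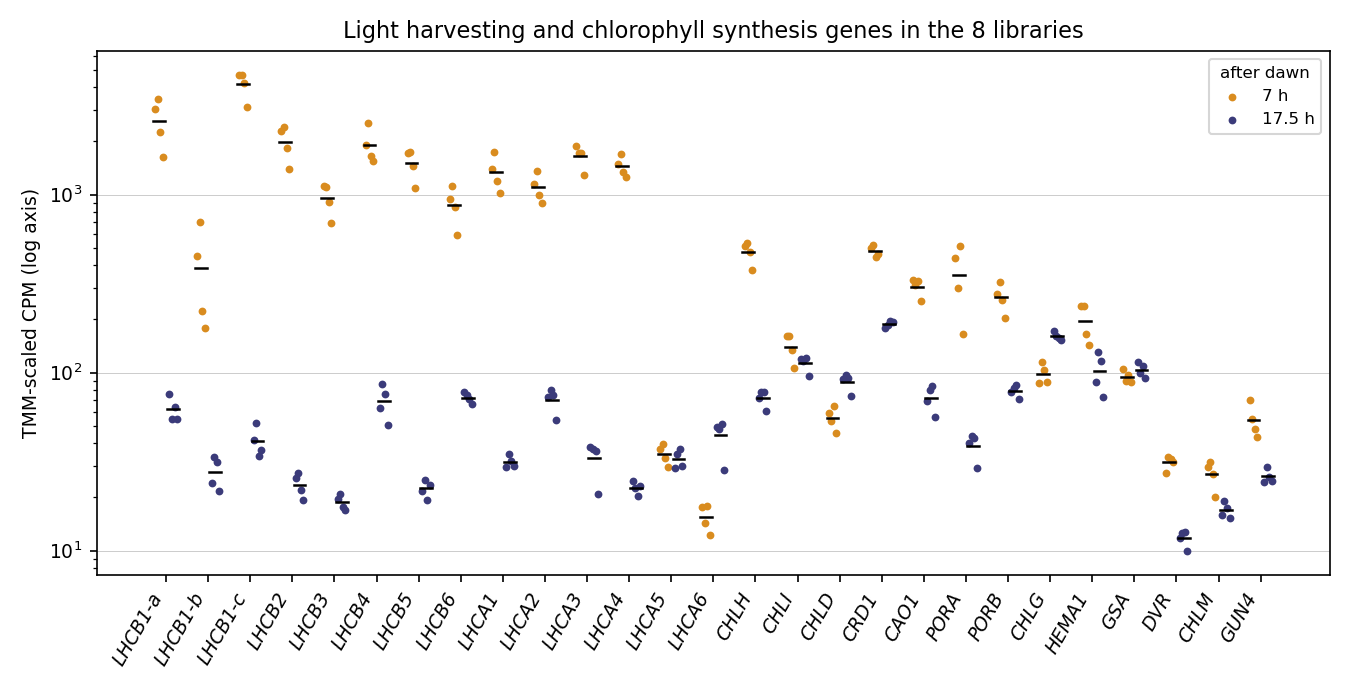
TMM-scaled CPM on a log axis of the 14 light harvesting and 13 chlorophyll synthesis genes in each library, with 7 h in orange, 17.5 h in dark blue and the mean of 4 libraries as a bar. For 12 of the 14 antenna genes the 17.5 h libraries lie far below those of 7 h, LHCA5 overlaps, and LHCA6 lies above.

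Of 9 carbon fixation genes, 1 was higher, 1 lower and 7 not called, with a median of -0.34. FBPase (OS03G0267300), a fructose-1,6-bisphosphatase, had 169, 165, 156 and 106 CPM in the 4 libraries of 7 h and 281, 332, 342 and 236 CPM in those of 17.5 h. It was higher at 17.5 h without overlap (1.00 ± 0.23 (SE), adjusted p = 0.0025). GAPB (OS03G0129300), a subunit of the chloroplast glyceraldehyde-3-phosphate dehydrogenase, had 871, 888, 705 and 633 CPM at 7 h and 379, 487, 454 and 375 CPM at 17.5 h (-0.87 ± 0.27 (SE), adjusted p = 0.0239). The GAPB call was lost without replicate 1 or 2 of 7 h or replicate 1 or 4 of 17.5 h, each left out singly (adjusted p = 0.0639 to 0.0737), and without the 2 least alike libraries and without the pollen-rich libraries (adjusted p = 0.0915 to 0.126). For FBPase the call was lost without the pollen-rich libraries (adjusted p = 0.0537). The Rubisco activase gene RCA (OS11G0707000) overlapped between the times and had 1649, 1082, 1257 and 1217 CPM at 7 h and 1289, 1900.2, 1709 and 1600.0 CPM at 17.5 h (log2 difference 0.32, adjusted p = 0.504). The 3 Rubisco small subunit genes tested had log2 differences from -1.49 to -0.34 and none was called.

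Photorespiration returns the carbon that Rubisco's oxygenase reaction diverts. Of 10 genes, 2 were higher at 17.5 h and none was lower, with a median of 0.29. HPR1 (OS02G0101500), the peroxisomal hydroxypyruvate reductase, had 227, 158, 196 and 199.6 CPM at 7 h and 616, 634, 665 and 547 CPM at 17.5 h. Every 17.5 h library was above every 7 h library (1.66 ± 0.23 (SE), adjusted p = 5.04e-06). SGAT (OS08G0502700), the serine-glyoxylate aminotransferase, had 385, 393, 371 and 318 CPM at 7 h and 815, 902, 956 and 828 CPM at 17.5 h (1.26 ± 0.28 (SE), adjusted p = 0.00234). With library totals alone or limma, 4 of the 10 were called higher.

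Starch synthesis genes were called in both directions, 4 of 24 higher and 3 lower, with a median of -0.02. SSIIIb (OS04G0624600), a starch synthase of leaves, had 244, 191, 278 and 276 CPM in the 4 libraries of 7 h and 118, 115, 111 and 123 CPM in those of 17.5 h. It was 2.12-fold lower at 17.5 h (-1.09 ± 0.13 (SE), adjusted p = 9.54e-07). SSIIb (OS02G0744700), another leaf-type synthase, had 78.9, 75.2, 87.5 and 59.3 CPM at 7 h and 44.1, 41.4, 41.3 and 34.3 CPM at 17.5 h (-0.90 ± 0.17 (SE), adjusted p = 0.000329). SSIVb (OS05G0533600), a synthase whose Arabidopsis counterpart acts in granule initiation, had 41.2, 38.8, 47.9 and 41.4 CPM at 7 h and 69.3, 64.2, 66.2 and 67.7 CPM at 17.5 h and was higher (0.66 ± 0.08 (SE), adjusted p = 1.22e-06). ISA1 (OS08G0520900), a debranching enzyme, had 11.1, 13.6, 15.9 and 17.3 CPM at 7 h and 45.2, 40.6, 36.7 and 42.4 CPM at 17.5 h (1.51 ± 0.22 (SE), adjusted p = 1.01e-05). None of these 4 overlapped between the times. AGPL3 and SSIIc were the other higher genes (log2 differences 0.88 and 0.52) and AGPS2 the other lower one (-0.49), named after their values were seen. BEIIb, an endosperm-type gene, was among the 17 not called (0.05, adjusted p = 0.966), and this 1 gene does not stand for all genes of that type.

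Of 5 starch breakdown genes tested, 1 was higher and 1 lower. BAM2 (OS10G0565200), a beta-amylase, had 3.34, 1.47, 7.66 and 1.57 CPM at 7 h and 61.4, 66.8, 57.7 and 25.8 CPM at 17.5 h. Its libraries at 17.5 h were 14.9-fold above those of 7 h in the fit (3.90 ± 0.48 (SE), adjusted p = 1.20e-06), the largest rise among the 286 list genes tested, and its mean was highest at 21 h. The BAM2 difference was 4.65 without replicate 3 of 7 h and 3.26 without the pollen-rich libraries. The starch-phosphorylating enzyme gene GWD1 (OS06G0498400), whose product primes starch for breakdown, had 511, 580.2, 685 and 706 CPM at 7 h and 369, 408, 382 and 344 CPM at 17.5 h and was lower (-0.72 ± 0.20 (SE), adjusted p = 0.0115). The GWD1 call was lost with limma and without the pollen-rich libraries (adjusted p = 0.0516 to 0.0964).

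In sugar metabolism 2 of 16 genes were lower and none was higher, with a median of 0.09. The direction depended on the scaling, since 2 were higher and 1 lower with library totals alone, and 3 higher and 1 lower with limma. TPS1 (OS05G0518600), trehalose-6-phosphate synthase, had 281, 158, 124 and 144 CPM at 7 h and 81.9, 93.6, 94.5 and 85.9 CPM at 17.5 h (-0.99 ± 0.24 (SE), adjusted p = 0.00488). CIN1 (OS02G0534400), a cell wall invertase, had 450.4, 323, 326 and 285 CPM at 7 h and 291, 234, 234 and 187 CPM at 17.5 h, with overlap (-0.55 ± 0.17 (SE), adjusted p = 0.0235). The CIN1 call was lost without replicate 1 of 7 h or replicate 2 or 4 of 17.5 h, each left out singly (adjusted p = 0.056 to 0.14), and with library totals alone, with limma, in the fit of the 8 libraries alone and without the 2 least alike libraries (adjusted p = 0.0517 to 0.176). For TPS1 the call was lost without replicate 1 of 7 h (adjusted p = 0.0509). Of 10 sucrose transport genes, SWEET14 (OS11G0508600), a sugar exporter, was the 1 called. It had 159.7, 27.2, 36.6 and 35 CPM at 7 h and 6.84, 13.8, 15.4 and 6.55 CPM at 17.5 h (-2.61 ± 0.59 (SE), adjusted p = 0.00255). Replicate 1 of 7 h was far above the other 3, and the groups did not overlap. Without that library the log2 difference was -1.64 (adjusted p = 0.0397). The transporter SUT1 had 192 ± 50.2 CPM at 7 h and 197 ± 44.5 CPM at 17.5 h (mean ± SD, n = 4) and was not called (adjusted p = 0.946).

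Of 10 nitrogen assimilation genes tested, 1 was higher and 3 were lower, with a median of 0.19. NADH-GOGAT2 (OS05G0555600), an NADH-dependent glutamate synthase, had 67.5, 36.1, 72.2 and 32.9 CPM in the 4 libraries of 7 h and 4.23, 5.63, 6.8 and 4.42 CPM in those of 17.5 h. It was 9.96-fold lower at 17.5 h (-3.32 ± 0.42 (SE), adjusted p = 1.74e-06). Fd-GOGAT (OS07G0658400), the ferredoxin-dependent glutamate synthase, had 572, 646, 715 and 563 CPM at 7 h and 1358, 1241, 1380.3 and 1061 CPM at 17.5 h and was higher (1.01 ± 0.15 (SE), adjusted p = 1.41e-05). These 2 glutamate synthase genes thus differed in opposite directions, each without overlap of the libraries. A further glutamate synthase gene of the list, NADH-GOGAT1, was tested and not called. NIR1 (OS01G0357100), nitrite reductase, had 13.3, 16.7, 14.3 and 14.9 CPM at 7 h and 6.78, 5.05, 5.23 and 4.64 CPM at 17.5 h (-1.44 ± 0.26 (SE), adjusted p = 0.000237). NIA1 (OS08G0468100), nitrate reductase, had 3.02, 1.68, 1.94 and 1.31 CPM at 7 h and 0.48, 0.331, 0.234 and 0.693 CPM at 17.5 h (-2.13 ± 0.58 (SE), adjusted p = 0.0111), from 151 counts at 7 h and 36 at 17.5 h in all.

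Heat shock genes, which encode chaperones and the factors that induce them, were lower at 17.5 h for 7 of 14 members and higher for none, with a median of -1.11. HSFA2d (OS03G0161900), a heat shock factor, had 71.8, 77.2, 50.5 and 74.9 CPM in the 4 libraries of 7 h and 11.5, 9.1, 10.7 and 6.87 CPM in those of 17.5 h. It was 7.18-fold lower (-2.84 ± 0.30 (SE), adjusted p = 1.06e-07). HSFB2c (OS09G0526600) had 30.5, 21.8, 14.4 and 47.1 CPM at 7 h and 5.04, 5.46, 4.69 and 2.72 CPM at 17.5 h (-2.67 ± 0.38 (SE), adjusted p = 1.13e-05). HSP18.0 (OS01G0184100), a small heat shock protein gene, had 3.08, 2.07, 1.59 and 10.6 CPM at 7 h and 0.69, 0.496, 0.469 and 0.373 CPM at 17.5 h (-3.05 ± 0.51 (SE), adjusted p = 8.73e-05), and HSP90-1 (OS08G0500700), a cytosolic chaperone, had 336, 267, 313 and 493 CPM at 7 h and 181, 169.8, 151 and 181 CPM at 17.5 h (-1.05 ± 0.22 (SE), adjusted p = 0.000992). Without replicate 4 of 7 h the HSP18.0 difference was -2.12. That replicate was the highest 7 h library for HSFB2c, HSP18.0 and HSP90-1, and the 2 times did not overlap for any of the 4 genes. The other lower genes were HSFB2b, HSP16.9A and HSP17.7 (log2 differences -1.82, -1.17 and -2.14). HSP101 had 27.6 ± 6.7 CPM at 7 h and 25 ± 3.64 CPM at 17.5 h (mean ± SD, n = 4) and was not called (adjusted p = 0.686).

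Of 13 redox genes, 4 were lower and none was higher, with a median of -0.23. CATA (OS02G0115700), a catalase, which breaks down hydrogen peroxide, had 4274, 3203, 4081 and 3200.1 CPM at 7 h and 603, 527, 547 and 463 CPM at 17.5 h. It was 6.9-fold lower at 17.5 h (-2.79 ± 0.20 (SE), adjusted p = 9.97e-11). CATC (OS03G0131200), the catalase of photorespiration, had 433, 417, 346 and 432 CPM at 7 h and 208, 243, 246 and 199 CPM at 17.5 h (-0.86 ± 0.25 (SE), adjusted p = 0.0191), and CATB had 187 ± 21.3 CPM at 7 h and 168 ± 19.9 CPM at 17.5 h (mean ± SD, n = 4) and was not called (adjusted p = 0.524). APX2 (OS07G0694700), a cytosolic ascorbate peroxidase, had 732, 674, 669 and 1007 CPM at 7 h and 347, 348, 299.9 and 269 CPM at 17.5 h (-1.29 ± 0.16 (SE), adjusted p = 1.28e-06). SODCC1 (OS03G0351500), a copper-zinc superoxide dismutase, had 359, 338, 351 and 417 CPM at 7 h and 242, 236, 233 and 210.4 CPM at 17.5 h (-0.67 ± 0.14 (SE), adjusted p = 0.000964). None of the 4 called genes overlapped between the times. For CATC the call was lost without replicate 1 or 4 of 17.5 h, each left out singly (adjusted p = 0.0536 to 0.0574), and without the 2 least alike libraries and without the pollen-rich libraries (adjusted p = 0.0797 to 0.132).

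Of 10 cold and dehydration genes, 3 were lower and none was higher, with a median of -0.82. DREB2B (OS05G0346200), a dehydration-response transcription factor, had 76.9, 85.9, 75.2 and 69.1 CPM at 7 h and 38, 32.9, 39.9 and 36.2 CPM at 17.5 h (-1.06 ± 0.12 (SE), adjusted p = 2.04e-07). DREB1C (OS06G0127100), a cold-response factor, had 2.52, 0.777, 1.06 and 2.23 CPM at 7 h and 0.21, 0.496, 0.156 and 0 CPM at 17.5 h (-2.95 ± 0.97 (SE), adjusted p = 0.0359). RAB16D (OS11G0453900), a dehydrin, had 0.629, 0.302, 0.969 and 0.393 CPM at 7 h and 0.0300, 0.0827, 0 and 0.16 CPM at 17.5 h (-2.97 ± 0.82 (SE), adjusted p = 0.0121). At 17.5 h these last 2 genes rest on 15 and 5 counts over 4 libraries, and the differences were -3.62 without replicate 2 of 17.5 h for DREB1C and -3.79 without replicate 4 of 17.5 h for RAB16D. For DREB1C the call was lost without replicate 1 or 4 of 7 h or replicate 1, 3 or 4 of 17.5 h, each left out singly (adjusted p = 0.0789 to 0.1), and with no filter, without the 2 least alike libraries and without the pollen-rich libraries (adjusted p = 0.0551 to 0.102). For RAB16D it was lost without replicate 1 of 17.5 h (adjusted p = 0.0587), and with limma (adjusted p = 0.12). Their relatives DREB1A and DREB1B had log2 differences of 1.34 and 1.32 and were not called (adjusted p = 0.366 and 0.301).

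Plasma membrane aquaporins, the water channels of the PIP family, were lower at 17.5 h for 8 of 10 genes tested and higher for none, with a median of -1.26. With library totals alone 7 passed the threshold and with limma 6. PIP1-2 (OS04G0559700) had 1174, 645, 805 and 1160.1 CPM at 7 h and 502, 512, 527 and 338 CPM at 17.5 h, and PIP2-1 (OS07G0448800) had 942, 456, 505 and 621 CPM at 7 h and 250.1, 358, 303 and 251 CPM at 17.5 h. They were 2.01-fold (-1.01 ± 0.21 (SE), adjusted p = 0.00135) and 2.17-fold lower (-1.12 ± 0.22 (SE), adjusted p = 0.000545). PIP2-4 (OS07G0448100) had 29.4, 13.3, 11.1 and 40.1 CPM at 7 h and 1.98, 1.49, 1.87 and 2.29 CPM at 17.5 h (-3.60 ± 0.45 (SE), adjusted p = 1.62e-06). PIP2-5 (OS07G0448200) had 7.36, 7.12, 3.52 and 13 CPM at 7 h and 0.42, 1.41, 0.937 and 0.533 CPM at 17.5 h (-3.30 ± 0.53 (SE), adjusted p = 4.74e-05). None of the 4 overlapped. PIP1-1, PIP1-3, PIP2-2 and PIP2-7 were lower too, with log2 differences from -1.65 to -1.01, PIP2-3 had -2.66 (adjusted p = 0.149) and PIP2-6 0.27 (adjusted p = 0.52). Copies of this family are alike in sequence, so reads may have been shared between them.

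Of 7 abscisic acid genes, 4 were lower and none was higher, with a median of -2.05. ZEP (OS04G0448900), zeaxanthin epoxidase, which acts early in abscisic acid synthesis and in the xanthophyll cycle, had 305, 288, 300.1 and 311 CPM in the 4 libraries of 7 h and 13.6, 12.4, 11.7 and 15.1 CPM in those of 17.5 h. It was 22.7-fold lower without overlap (-4.51 ± 0.23 (SE), adjusted p = 1.09e-13). NCED4 (OS07G0154100), a dioxygenase of abscisic acid synthesis, had 13.7, 2.12, 2.38 and 5.11 CPM at 7 h and 1.02, 0.496, 0.703 and 0.0533 CPM at 17.5 h (-3.29 ± 0.94 (SE), adjusted p = 0.0153). Its call was lost without replicate 1 of 7 h (log2 difference -2.43, adjusted p = 0.0917). The hydroxylases that break down abscisic acid were also lower without overlap. ABA8OX2 (OS08G0472800) had 66.8, 34.1, 35.6 and 38.6 CPM at 7 h and 11.1, 14.1, 9.53 and 7.57 CPM at 17.5 h (-2.05 ± 0.41 (SE), adjusted p = 0.000637). ABA8OX3 (OS09G0457100) had 27.2, 24.7, 11.8 and 17.9 CPM at 7 h and 4.23, 3.14, 1.95 and 1.49 CPM at 17.5 h (-2.90 ± 0.59 (SE), adjusted p = 0.000872). Genes of synthesis and of breakdown were thus both among those that were lower, while ABA8OX1 had 22.6 ± 9.18 CPM at 7 h and 51.8 ± 31 CPM at 17.5 h (mean ± SD, n = 4) and was not called (adjusted p = 0.19).

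Of 14 gibberellin genes, 2 were higher and 1 was lower, with a median of -0.32. GA2OX3 (OS01G0757200), which inactivates gibberellins, had 294, 98.8, 147 and 121 CPM at 7 h and 42.9, 44.5, 46.3 and 22.5 CPM at 17.5 h and was lower (-2.08 ± 0.32 (SE), adjusted p = 2.87e-05). KS1 (OS04G0611800), a synthase early in the pathway, had 75.3, 89.3, 115 and 85.5 CPM at 7 h and 151, 146, 159 and 120.2 CPM at 17.5 h (0.66 ± 0.13 (SE), adjusted p = 0.0004). GA20OX1 (OS03G0856700), an oxidase late in the pathway, had 13.1, 14.1, 12.4 and 16.89 CPM at 7 h and 28.2, 17, 22.5 and 23.9 CPM at 17.5 h (0.70 ± 0.22 (SE), adjusted p = 0.0273). The GA20OX1 call was lost without replicate 1, 2 or 3 of 7 h or replicate 1, 3 or 4 of 17.5 h, each left out singly (adjusted p = 0.056 to 0.113), and without the 2 least alike libraries and without the pollen-rich libraries (adjusted p = 0.0653 to 0.122). In the jasmonate list 2 of 18 genes were higher and 1 lower, with a median of 0.00. JAR2 (OS01G0221100), a jasmonate-amino acid synthetase, had 1.01, 1.17, 1.59 and 1.7 CPM at 7 h and 5.49, 7.61, 7.81 and 5.17 CPM at 17.5 h (2.25 ± 0.56 (SE), adjusted p = 0.00562). AOS1 (OS03G0767000), allene oxide synthase, had 21.5, 24.1, 21.6 and 24.7 CPM at 7 h and 34.6, 48.3, 37.6 and 25.6 CPM at 17.5 h (0.67 ± 0.22 (SE), adjusted p = 0.0356). AOC (OS03G0438100), allene oxide cyclase, had 133, 108, 99.1 and 120.0 CPM at 7 h and 75.8, 88.2, 79.7 and 77.8 CPM at 17.5 h (-0.52 ± 0.17 (SE), adjusted p = 0.0414). Its call was lost without replicate 1, 2 or 4 of 7 h or replicate 1, 2, 3 or 4 of 17.5 h, each left out singly (adjusted p = 0.0503 to 0.138), and with DESeq2 size factors, with library totals alone, with no filter, with limma, without the 2 least alike libraries and without the pollen-rich libraries (adjusted p = 0.0554 to 0.152). For AOS1 the call was lost without replicate 1, 2, 3 or 4 of 7 h or replicate 1, 2 or 3 of 17.5 h, each left out singly (adjusted p = 0.0568 to 0.147), and without the pollen-rich libraries (adjusted p = 0.109). For JAR2 it was lost without the pollen-rich libraries (adjusted p = 0.0602). The 8 TIFY genes tested, repressors of the pathway, had log2 differences from -2.05 to 0.75 and none was called.

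Of 14 photoperiod and flowering genes tested, 1 was higher and 2 were lower, with a median of -0.05. Hd3a (OS06G0157700), a lower gene, encodes a mobile flowering signal made in leaves. It had 11.3, 9.67, 5.11 and 7.46 CPM at 7 h and 1.98, 5.38, 3.91 and 1.44 CPM at 17.5 h, with overlap (-1.42 ± 0.49 (SE), adjusted p = 0.0477). Its call was lost without replicate 1, 2 or 4 of 7 h or replicate 1, 3 or 4 of 17.5 h, each left out singly (adjusted p = 0.0646 to 0.153), and with DESeq2 size factors, with no filter, without the 2 least alike libraries and without the pollen-rich libraries (adjusted p = 0.0513 to 0.226). MADS14 (OS03G0752800), an inflorescence gene that acts downstream of that signal, had 44.4, 36.6, 45.1 and 42.5 CPM at 7 h and 64.5, 65, 65.2 and 46.4 CPM at 17.5 h (0.52 ± 0.17 (SE), adjusted p = 0.033). The MADS14 call was lost without replicate 1, 2 or 4 of 7 h or replicate 1, 2 or 3 of 17.5 h, each left out singly (adjusted p = 0.055 to 0.111), and without the 2 least alike libraries and without the pollen-rich libraries (adjusted p = 0.0529 to 0.272). Ehd1 and Ghd7, regulators upstream of Hd3a, had too few counts to be tested.

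None of the 16 floral organ identity genes, which specify lodicules, stamens and carpels, was called, and their median was -0.10. The lowest p was that of MADS34 (OS03G0753100), which had 30.1, 36.2, 27.4 and 24.3 CPM at 7 h and 17.2, 21.4, 21.1 and 19.9 CPM at 17.5 h and no overlap (-0.57 ± 0.24 (SE), adjusted p = 0.105). None of the 13 cell division genes was called either, with a median of 0.38. Here MCM6 (OS05G0235800), a subunit of the replicative helicase, came first and had 14.9, 18.4, 22.6 and 28.1 CPM at 7 h and 38.8, 38.8, 30.9 and 40.2 CPM at 17.5 h (0.82 ± 0.43 (SE), adjusted p = 0.213). The cell division genes summed to 289, 402, 490.2 and 543 CPM at 7 h and 579, 551, 446 and 656 CPM at 17.5 h, so the ranges overlapped. In the fit of the 8 libraries alone, MADS34 and MCM6 passed the threshold.

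Of 11 tapetum genes tested (the tapetum is the anther layer that feeds the pollen), 1 was higher and 1 lower, with a median of -0.65. DPW (OS03G0167600), a fatty acyl reductase of the pollen wall, had 92.6, 21.2, 26.6 and 31.7 CPM at 7 h and 7.23, 8.77, 13.6 and 3.09 CPM at 17.5 h (-2.40 ± 0.64 (SE), adjusted p = 0.00945), and replicate 1 of 7 h was far above the other 3. UDT1 (OS07G0549600), a tapetum transcription factor, had 2.83, 2.29, 1.15 and 2.23 CPM at 7 h and 4.02, 3.14, 4.45 and 5.22 CPM at 17.5 h (0.99 ± 0.26 (SE), adjusted p = 0.0085). For DPW the call was lost without replicate 1 of 7 h (log2 difference -1.70, adjusted p = 0.0766). For UDT1 it was lost without the 2 least alike libraries (adjusted p = 0.0633). None of the 4 mature pollen genes tested was called, although their median was -1.85. MADS68 (OS11G0658700) had 4.47, 9.84, 3.61 and 10.2 CPM at 7 h and 0.81, 4.88, 1.09 and 0.32 CPM at 17.5 h, and its libraries overlapped (-2.05 ± 1.10 (SE), adjusted p = 0.225). The spread within each time was wide for this gene, with replicates 2 and 4 high at 7 h and replicate 2 high at 17.5 h. Of 2 endosperm storage genes tested neither was called, and RISBZ1 (OS07G0182000), a storage protein regulator, had 1.76, 1.81, 1.32 and 1.18 CPM at 7 h and 0.87, 0.745, 0.859 and 0.959 CPM at 17.5 h (-0.81 ± 0.40 (SE), adjusted p = 0.182). Of the genes named by the rule, 13 lost their call without the pollen-rich libraries, in a fit with fewer samples. For 6 of these the log2 difference was as large or larger without them, and the widest shrinkage among the other 7 was 0.14, for PHYB. Some genes that kept their call moved further. Without the pollen-rich libraries HSP18.0 had -2.16 (against -3.05) and BAM2 3.26 (against 3.90), while SWEET14 had a larger difference of -3.21 (against -2.61). The part of pollen content in these results was not tested.

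Genes used as references for quantitative PCR were among those that differed, 2 of 3 being lower at 17.5 h. GAPDH (OS08G0126300), a glycolytic enzyme, had 2217, 1938, 1941 and 2507 CPM in the 4 libraries of 7 h and 1471, 1412, 1454 and 1358 CPM in those of 17.5 h. It was 1.51-fold lower without overlap (-0.60 ± 0.12 (SE), adjusted p = 0.000925). EEF1A (OS03G0177400), a translation elongation factor, had 520.3, 489.6, 436 and 486 CPM at 7 h and 365, 356, 329 and 406 CPM at 17.5 h (-0.41 ± 0.13 (SE), adjusted p = 0.0302). The EEF1A call was lost without replicate 1, 2 or 4 of 7 h or replicate 1, 2 or 3 of 17.5 h, each left out singly (adjusted p = 0.0599 to 0.106), and with library totals alone, with limma and without the pollen-rich libraries (adjusted p = 0.162 to 0.387). For GAPDH it was lost with limma (adjusted p = 0.069). ACT1, an actin, had 490.4 ± 100.2 CPM at 7 h and 379.6 ± 53.1 CPM at 17.5 h (mean ± SD, n = 4) and was not called (adjusted p = 0.436).

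**Figure D4:**
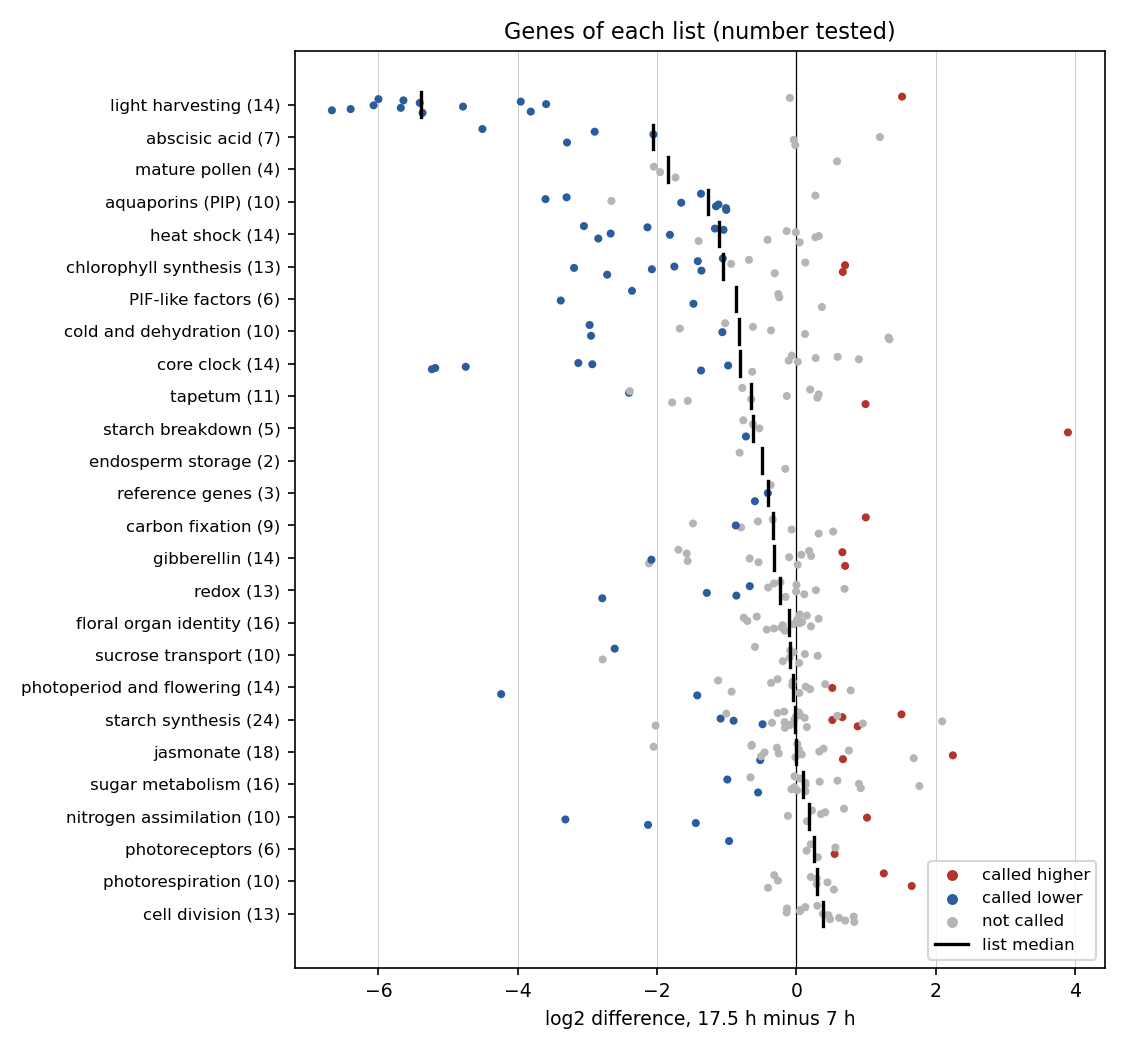
Log2 difference between 17.5 h and 7 h (horizontal axis) of every tested gene of the 26 lists (vertical axis, with the number tested in parentheses), red where called higher, blue where called lower, grey where not called, and a black bar for the list median. Light harvesting stands at the top with a median of -5.39, and most lists have medians between -1 and 1.

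The comparison of 21 h with 10.5 h, made with 8 other libraries, called 6531 of 25766 genes (25.3%), 3048 higher and 3483 lower at 21 h. Of the 1752 genes higher at 17.5 h, 674 (38.5%) were also higher at 21 h, 112 (6.39%) were lower there and 966 were not called. Of the 2396 lower genes, 1036 (43.2%) were also lower at 21 h, 329 (13.7%) were higher there and 1031 were not called. The shared genes made up 22.1% of the 3048 genes higher at 21 h and 29.7% of the 3483 lower ones. The test of the difference between the 2 comparisons called 2897 genes (11.2%). Among them were 466 of the 1752 and 886 of the 2396 (26.6% and 37%). That test uses the same 17.5 h and 7 h values by which these genes were picked. The 2 shares are raised by this choice and cannot be weighed against the 11.2%. For the genes below, a difference below 0 means that the log2 difference of 17.5 h against 7 h was the lower of the 2.

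The median of the aquaporins was -1.26 at 17.5 h against 7 h and 1.68 at 21 h against 10.5 h, where 8 of 10 genes were higher and 1 was lower. The difference was called for 8 genes, below 0 for 7 of them. PIP2-4 had a log2 difference of 2.32 at 21 h against 10.5 h, and the difference of the 2 comparisons was -5.92 ± 0.62 (SE), adjusted p = 8.29e-08. PIP2-7, singled out after its values were seen, went further down, to -5.05 (difference 3.69 (adjusted p = 0.000106)), and its mean was highest at 10.5 h. Of the 14 antenna genes, 9 were lower and 1 was higher at 21 h against 10.5 h, with a median of -1.84. LHCA5 was the higher one (1.55, adjusted p = 9.3e-05), and LHCB1-b, LHCB6, LHCA2 and LHCA6 were not called there. The difference was called for 13 of the 14, below 0 for 12. Chlorophyll synthesis genes had a median of 0.09 at 21 h against 10.5 h, with 4 of 13 higher and 3 lower. The lower ones were PORB, GSA and CHLM (log2 differences -0.91, -0.68 and -1.03), and GUN4 was among the higher (1.68). CAO1, CHLH and CRD1 were lower at 17.5 h but higher at 21 h, by 2.62, 1.35 and 2.14, and the differences were -4.69 (adjusted p = 5.69e-11), -4.06 (adjusted p = 2.47e-08) and -3.50 (adjusted p = 9.81e-08).

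The clock genes that were not called at 17.5 h against 7 h included those with the widest differences. LHY had a log2 difference of 6.61 at 21 h against 10.5 h (adjusted p = 1.44e-11) and LUX had -6.74 (adjusted p = 5.26e-12). The difference of the 2 comparisons was -7.25 ± 0.57 (SE), adjusted p = 3.80e-10 for LHY and 7.63 ± 0.56 (SE), adjusted p = 1.07e-10 for LUX. GI was lower in both, by -2.93 at 17.5 h and -5.49 at 21 h (difference 2.56 (adjusted p = 1.95e-09)). RCA, not called between 7 h and 17.5 h, had 4.88 at 21 h against 10.5 h (difference -4.56 (adjusted p = 1.14e-08)). SSIIIb and HSFA2d were lower at 17.5 h and higher at 21 h, by 1.90 and 1.31 (differences -2.99 (adjusted p = 5.07e-12) and -4.16 (adjusted p = 2.89e-08)). BAM2 was higher in both, by 3.90 and 4.07, and the difference of -0.17 (adjusted p = 0.926) was not called. ZEP was lower in both, by -4.51 and -2.54 (difference -1.96 (adjusted p = 1.67e-05)).

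**Figure D5:**
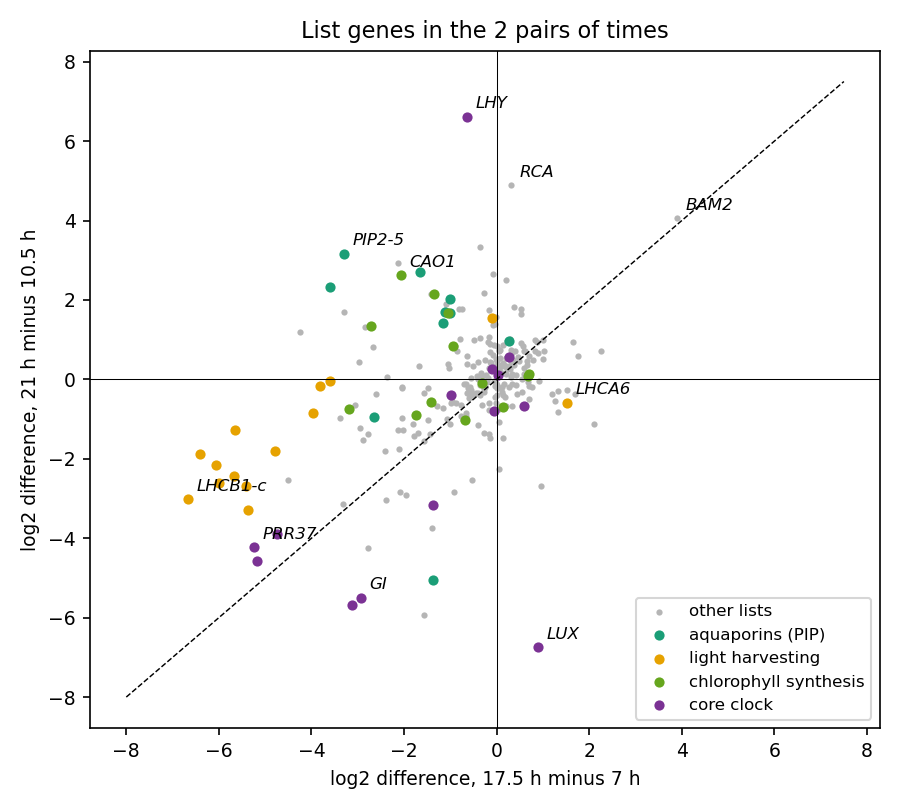
Log2 difference at 21 h against 10.5 h (vertical axis) against that at 17.5 h against 7 h (horizontal axis) for the 286 list genes tested, with 4 lists in colour and a dashed line of equal differences. LHY and LUX lie far from the line but within 1 unit of 0 on the horizontal axis, most aquaporins lie in the upper left, and BAM2 lies near the line.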

How the data were processed

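Total RNA of rice panicles was enriched for poly(A) RNA and made into libraries with a directional kit, per the labels' protocols. The submitters' processing notes name the genome build IRGSP-1.0, TopHat2 (version 2) and HTSeq (version 0.6.0), with no settings for strand or shared reads. The authors deposited a table of raw counts for 37829 genes, with no rows other than genes, and a table of CPM that equals each deposited count divided by its library total and multiplied by 1000000 (largest difference 5e-07 CPM). The raw counts were analysed here, and the deposited CPM were used in 1 alternative.

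Groups and replicate numbers were read from the sample titles. All 32 libraries were fitted in edgeR 4.0.16 (R 4.3.3) by the quasi-likelihood test with TMM scaling, its default filter on low counts and 1 mean for each of the 8 times. The filter left 25766 genes, which held 99.7% or more of the counts of each library, and left out 3564 genes at 0 in all libraries and 8499 with few counts. Contrasts were 17.5 h minus 7 h, 21 h minus 10.5 h, and the difference between them. P-values were adjusted by Benjamini-Hochberg over all genes tested, with a threshold of 0.05. The standard error is the absolute log2 difference divided by the square root of F. The fit was tested on simulated data, where it recovered only part of the known changes, and the limits it had to meet were loosened after stricter ones were missed. Alternatives were DESeq2 size factors, library totals alone, no filter, a filter of 1 CPM in at least 4 libraries, DESeq2 1.42.0, limma 3.58.1 on log2(deposited CPM + 1), the replicate number as a block, the 8 libraries alone, each library left out, and 2 sets of libraries left out that were chosen after seeing the data. Libraries of 1 time differed by more than sampling noise (chi-square per degree of freedom 10.7 to 58.5), so none was counted as a duplicate. The labels do not say what a replicate number marks. Same-numbered libraries of 10.5 h and 21 h had r across genes of 0.144 to 0.718, and differently numbered ones -0.600 to 0.383. Replicates 2, 3 and 4 of 10.5 h each had their highest r with the same number of 21 h (0.144, 0.718 and 0.2385). Replicate 1 of 10.5 h had a higher r with replicates 2 and 4 of 21 h (0.383 and 0.333) than with replicate 1 (0.310). The blocked count of calls for 21 h against 10.5 h stayed close to the unblocked one (3189 against 3048 higher and 3568 against 3483 lower).

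The members and lists were chosen with earlier results of these data known. Neither the files nor the reference table (assembly ASM3414082v1) pairs these identifiers with names, and symbols were attached by hand from general knowledge. The 26 lists hold 310 pairs: 203 were checked by the table (same chromosome and same order along it), 6 were dropped because the table places the symbol elsewhere, and 101 had no entry. The table did not check PRR59, FKF1, ZTL1, ZTL2, ELF3-2, ELF4a, Ehd1, Ghd7, LHCB1-b, LHCB3, LHCB5, LHCB6, LHCA1, LHCA2, LHCA3, LHCA4, LHCA5, LHCA6, GAPB, CRD1, CAO1, CHLM, GUN4, AGPL3, SSIIIb, SSIVb, BEIIb, GWD1, BAM2, TPS1, NIR1, NADH-GOGAT1, CATC, JAR2, DPW, MADS62, MADS63, MADS68, RISBZ1, CRY1a, CRY1b, CRY2, PIL11, PIL12, PIL13, PIL14, PIL15, HPR1, SGAT, NCED4, GA20OX1 and GA2OX3, so these names are provisional. Named were all clock, photoreceptor and PIF-like genes, from every other list at most the 4 called genes of lowest adjusted p (or the 1 of lowest p where none was called), the 2 largest rises and falls of all genes without overlap and with a mean of at least 5 CPM, and the 10 list genes with the lowest p for the difference of the comparisons. Genes beyond this rule were chosen after their values were seen. A gene that this rule names is not reported here.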

Additional observations from a re-analysis of the deposited data

Results flagged for a closer look

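For 14 of 186 sets of 4 libraries (each gene named by the rule, at each time), 1 library stood far from the other 3 by Dixon's criterion, which chance meets in about 1 of 20 sets. In these cases 1 library was high. PRR37 had 5.55 CPM in replicate 3 of 17.5 h and 4.22 to 4.37 CPM in the other 3. ELF3-2 had 10.3 CPM in replicate 4 of 7 h and 6.17 to 6.87 CPM in the other 3. ELF4a had 19.1 CPM in replicate 3 of 17.5 h and 14.6 to 15 CPM in the other 3. HSP18.0 had 10.6 CPM in replicate 4 of 7 h and 1.59 to 3.08 CPM in the other 3. DPW had 92.6 CPM in replicate 1 of 7 h and 21.2 to 31.7 CPM in the other 3. MADS68 had 4.88 CPM in replicate 2 of 17.5 h and 0.32 to 1.09 CPM in the other 3. ABA8OX2 had 66.8 CPM in replicate 1 of 7 h and 34.1 to 38.6 CPM in the other 3. SWEET14 had 159.7 CPM in replicate 1 of 7 h and 27.2 to 36.6 CPM in the other 3. In the others 1 library was low. LUX had 5.86 CPM in replicate 4 of 17.5 h, against 7.97 to 8.27 CPM. MADS14 had 46.4 CPM in replicate 4 of 17.5 h, against 64.5 to 65.2 CPM. LHCA3 had 20.8 CPM in replicate 4 of 17.5 h, against 36.2 to 38.2 CPM. MCM6 had 30.9 CPM in replicate 3 of 17.5 h, against 38.8 to 40.2 CPM. PIP1-2 had 338 CPM in replicate 4 of 17.5 h, against 502 to 527 CPM. GA2OX3 had 22.5 CPM in replicate 4 of 17.5 h, against 42.9 to 46.3 CPM. Of these 6 low values, 5 were in replicate 4 of 17.5 h.

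In edgeR, the log2 difference of 17.5 h against 7 h was compared with that of 21 h against 10.5 h. The test of the difference called 81 of the 286 list genes tested. The 10 with the lowest p are given here, so their low p-values follow from this choice. The difference was below 0 for SSIIIb (-2.99), CAO1 (-4.69), LHY (-7.25), RCA (-4.56), CHLH (-4.06), HSFA2d (-4.16), PIP2-4 (-5.92) and CRD1 (-3.50). It was above 0 for LUX (7.63) and GI (2.56). All 10 had adjusted p-values of 9.81e-08 or lower.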

How the results depend on the processing

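The counts of calls depended on the scaling. With library totals alone 2674 genes were higher and 1513 lower at 17.5 h (853 higher by at least 2-fold), and with limma 2880 and 1557 (732 lower by at least 2-fold, and 2054 with a difference of the comparisons above 0). The genes called in both fits were 3251 and 3255 of 4148, all in the same direction. With 1 library left out, 1151 to 1781 genes were higher and 1727 to 2338 lower, 427 to 665 and 884 to 1192 by at least 2-fold. Without the 2 least alike libraries 1156 were higher, and without the pollen-rich replicates 2 and 4 of 7 h 667 (300 by at least 2-fold), with 843 differences above 0. These fits use fewer samples. With the replicate block 1913 genes were higher and 2528 lower. In the fit of the 8 libraries alone 2546 were higher and 2801 lower, and with DESeq2 2388 and 2634. Same-numbered libraries of 7 h and 17.5 h did not deviate together (r -0.11 to 0.21), and not every library correlated best with its own number. Of 74 named genes called, 54 were called in every alternative run for them, and none reversed. Among genes not called, ELF4a changed sign with library totals alone (0.10) and limma (0.092), as did ZTL2 (0.055 and 0.054). ZTL1 ranged from -0.033 to 0.061 with 1 library left out, and had -0.0023 without the least alike and -0.060 without the pollen-rich libraries, where PIL11 had -0.0056. The causes were not tested. Limma on log2(CPM + 1) gives smaller differences for low genes by construction, such as RAB16D (-0.53), NIA1 (-0.97) and DREB1C (-1.04). Of genes under 1 CPM, 3.54% were called, and the part of depth in this was not tested.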
